A study of Mus musculus with 36 samples.

Results

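Neurotrophins and their receptors were followed at the RNA level over 9 groups of mouse cortical neurons, as the 6 genes Bdnf, Ntf3, Ntrk2, Ntrk3, Ngfr and Sort1. These 6 were listed by name and found by symbol among the 26709 genes of the RNA table, and all 6 passed the filter of a mean of at least 10 normalised counts over the 18 libraries. Cortices of CD-1 embryos were taken at embryonic day 15, the tissue of all embryos was dissociated together, and the neurons were kept for 7 days in vitro. Activity was silenced in all groups by AP-5 (100 µM), which blocks NMDA receptors, together with TTX (1 µM), which blocks sodium channels. In 6 groups, silencing for 2 h was followed by 10 ng/ml BDNF or by 55 mM KCl, which depolarises the membrane, for 1, 6 or 10 h. The 3 control groups stayed in AP-5 and TTX for 3, 8 or 12 h in all, and are named here by the matching stimulus time of 1, 6 or 10 h. RNA-seq and ATAC-seq, which reads open chromatin, each had 2 samples per group, so that the pooled controls held 6. Cultures, and not single animals, were compared, so p-values measure the spread between these samples.

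Neurotrophins are secreted growth factors that are made as longer precursors and cut to the mature form. BDNF, the product of Bdnf, binds the receptor tyrosine kinase TrkB, encoded by Ntrk2, and neurotrophin-3, the product of Ntf3, binds TrkC, encoded by Ntrk3. All mature neurotrophins also bind p75NTR, encoded by Ngfr, and the precursors bind p75NTR together with sortilin, the product of Sort1, which also sorts BDNF inside the cell. Ntrk2 and Ntrk3 give rise to full-length kinase receptors and to truncated forms without the kinase, and Bdnf is transcribed from several promoters. The values here are sums per gene, so neither receptor forms nor Bdnf promoters were separated.

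RNA libraries held 8.51 to 36.7 M (1e6) reads (median 11.6) and ATAC libraries 1.24 to 6.24 M reads in peaks (median 3.55). The summed level of 6 neuron markers, Tubb3 and Map2 among them, was 52412 to 65752 normalised counts, and markers of astrocytes or radial glia, of the oligodendrocyte lineage and of meningeal fibroblasts were also read, so the cultures were mixed. The summed level of 5 markers of inhibitory neurons was 10398 to 12186 normalised counts in the 6 controls, 12622 to 14712 with BDNF and 12752 to 15379 with KCl, with 3 or 4 of the 5 higher in each comparison and 1 lower at KCl 6 h and at KCl 10 h. That of 5 excitatory markers was 5193 to 5930 in controls, 3817 to 5980 with BDNF and 4885 to 7139 with KCl, with 3 of 5 lower and 2 higher at BDNF 1 h (median log2 fold change -0.56) and 5 of 5 higher at KCl 6 h. At KCl 1 h, 5 of the 6 neuron markers were higher and 1 lower, and at KCl 10 h all 4 fibroblast markers were lower. The shares of all genes called in each direction, beside which these marker counts stand, are given in the next paragraph. The part of the marker shifts in the results was not tested. The KCl 6 h library B stood apart, with 3.26% of its reads on the single gene Gm42418. No gene was called between controls of different times by limma (0% of 16209 genes at 6 h and at 10 h against 1 h), with 164 and 181 genes at an unadjusted p under 0.05, and edgeR and DESeq2 also called 0. No member was therefore called in either test. Each test set 2 libraries against 2, and fewer genes were under 0.05 than that threshold gives by chance. The tests therefore cannot show that the control times were alike. Controls of 10 h were not tested against those of 6 h. The 6 controls were pooled in the main model, and this pooling does not rest on these tests.

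Upon BDNF stimulation, Bdnf, Ngfr and Sort1 rose, Ntf3 fell at each time and Ntrk2 fell at 6 and 10 h. Upon KCl stimulation, Bdnf rose far more, Sort1 rose at each time, and Ntrk2 rose at 6 and 10 h. A gene was called at an adjusted p under 0.1 in a limma model over all 16209 genes tested, and fold changes are on the log2(normalised count + 1) scale, on which changes of low genes are understated. BDNF changed 4 of the 6 members at 1 h (3 higher, 1 lower), when 40.4% of all genes were called (21.3% higher, 19% lower). It changed all 6 at 6 h (4 higher, 2 lower), beside 43.3% of all genes (22.1% higher, 21.1% lower), and 5 at 10 h (3 higher, 2 lower), beside 40.6% (21.1% higher, 19.5% lower). KCl changed 4 at 1 h (3 higher, 1 lower), beside 54.7% of all genes (26.5% higher, 28.2% lower). It changed 4 at 6 h, all higher, beside 66.5% (33.4% higher, 33.1% lower), and 4 at 10 h, all higher, beside 57.2% (29% higher, 28.2% lower). The BDNF and KCl comparisons used the same 6 controls.

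**Figure D1:**
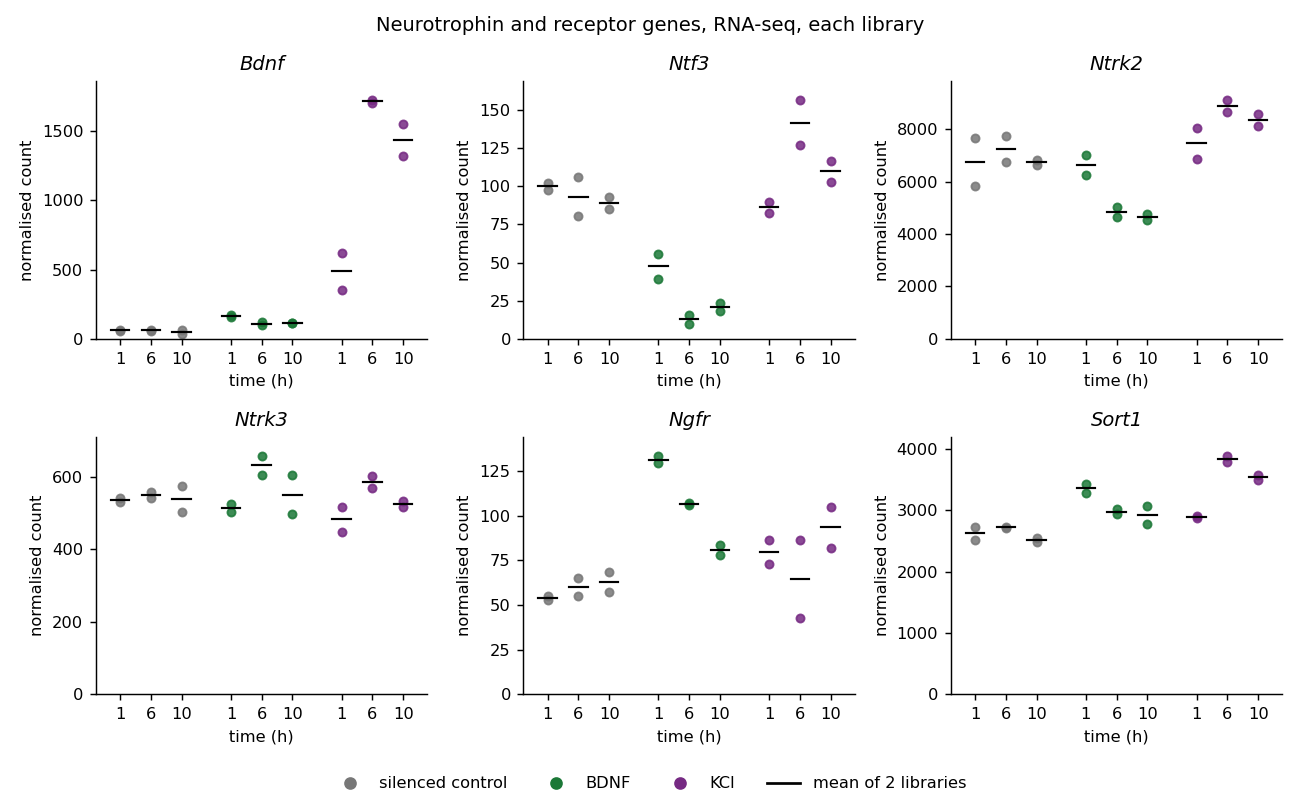
Normalised counts (y axis, linear, starting at 0) of the 6 genes in the 18 RNA libraries by stimulus and time in hours (x axis); points are libraries and bars are means of 2. Ntf3 with BDNF lies under all 6 controls at each time, Ntrk2 with BDNF does so at 6 and 10 h, and Bdnf with KCl reaches 1721.

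Bdnf (ENSMUSG00000048482) encodes the stimulus itself and lies on the plus strand at chr2:109674700-109727007 in mm10, the build of all coordinates here. Its normalised count in the 6 controls was 38.5 at the lowest, 62.5 at the median and 65.1 at the highest. With BDNF it was 158 and 172 at 1 h, then 97.3 and 121 at 6 h, and 118 and 113 at 10 h. All 6 BDNF libraries were therefore above all 6 controls. With KCl it was 620 and 356 at 1 h, then 1704 and 1721 at 6 h, and 1547 and 1318 at 10 h. Each KCl library in turn was above each BDNF library. Against controls of 58.7 ± 10.3 (SD, n = 6), the log2 fold change with BDNF was 1.49 ± 0.19 (SE) at 1 h (adjusted p = 5.99e-06), 0.89 at 6 h (0.0012) and 0.98 at 10 h (0.000698). With KCl it was 3.00 at 1 h (3.36e-10), then 4.86 at 6 h (4.08e-13) and 4.60 at 10 h (1.57e-12), so that the mean at 6 h was 29.2 times that of controls. The 1 h peak of the BDNF response was followed by a fall of 0.60 on the log2 scale by 6 h (adjusted p = 0.0646), whereas KCl added 1.86 from 1 to 6 h (2.53e-06). That fall was not called without BDNF 6 h library A (-0.45, adjusted p = 0.327) or without either library of BDNF 1 h (-0.66 and -0.54, adjusted p = 0.145 and 0.235). The order of the 9 group means was KCl 6 h, KCl 10 h, KCl 1 h, BDNF 1 h, BDNF 10 h, BDNF 6 h and then the controls; BDNF 10 h overlapped BDNF 6 h, and the 3 control groups overlapped each other. Exons of Bdnf overlap those of Gm45346 on the opposite strand, and the strand setting of the counting is not given in the sources used here, so reads of the pair cannot be told apart.

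Ntf3 (ENSMUSG00000049107), the gene of neurotrophin-3, is on the minus strand at chr6:126101412-126166910. Controls ranged from 80.3 to 106 normalised counts with a median of 95.0. BDNF libraries were at 39.5 and 55.7 at 1 h, then 9.91 and 15.6 at 6 h, and 18.1 and 23.5 at 10 h, each under the lowest control. KCl libraries were at 82.7 and 89.8 at 1 h, then 127 and 156 at 6 h, and 103 and 117 at 10 h, of which only those of 6 h were clear of the controls. Ntf3 thus had the largest BDNF change of the 6 genes at 6 h, a log2 fold change of -2.81 ± 0.18 (SE; adjusted p = 1.09e-10), with -0.98 at 1 h (0.000211) and -2.13 at 10 h (1.28e-08). The 6 h mean of 12.7 ± 3.99 (SD, n = 2) was 7.38 times lower than that of controls, 93.9 ± 9.81 (n = 6), and rested on 11 and 17 reads. It fell by 1.84 from 1 to 6 h (2e-06), and the later difference of 0.69 between 6 and 10 h was not called (adjusted p = 0.417). With KCl the gene rose at 6 h by 0.59 (adjusted p = 0.00813), and was at -0.12 at 1 h (0.632) and 0.22 at 10 h (0.32). The KCl rise of 6 h was not called without KCl 6 h library B (0.44, adjusted p = 0.133), and nor was the gain of 0.70 from 1 to 6 h (0.0113; 0.55 and 0.103 without it). In the order of group means, KCl 6 h and KCl 10 h were followed by controls of 1, 6 and 10 h and KCl 1 h, neighbours among these 4 overlapping, and then, each clear of the one before, by BDNF 1 h, BDNF 10 h and BDNF 6 h.

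Ntrk2 (ENSMUSG00000055254), the gene of the BDNF receptor TrkB, is on the plus strand at chr13:58806569-59133970. Controls were at 5835 to 7734 normalised counts, with a median of 6797. With BDNF the counts were 6239 and 7005 at 1 h, then 4662 and 5018 at 6 h, and 4761 and 4537 at 10 h. The receptor gene thus overlapped the controls at 1 h and lay under all of them from 6 h. With KCl the counts were 6869 and 8044 at 1 h, then 9101 and 8642 at 6 h, and 8556 and 8117 at 10 h, so that all 4 libraries of 6 and 10 h exceeded the highest control. Upon BDNF stimulation the log2 fold change was -0.06 ± 0.09 (SE) at 1 h (adjusted p = 0.654), -0.51 at 6 h (9.34e-05) and -0.57 at 10 h (3.87e-05), the last from 6910 ± 707 (SD, n = 6) to 4649 ± 158 (n = 2). Upon KCl stimulation it was 0.11 at 1 h (0.299), then 0.37 at 6 h (0.000928) and 0.28 at 10 h (0.0107). Between 1 and 6 h, Ntrk2 fell by 0.45 with BDNF (adjusted p = 0.0029) and rose by 0.25 with KCl (0.0464). The KCl call of 10 h was lost without KCl 10 h library A (0.24, adjusted p = 0.112), and that between 1 and 6 h without KCl 6 h library A (0.22, 0.179) or KCl 1 h library A (0.14, 0.367). Group means ran from KCl 6 h and KCl 10 h through KCl 1 h, the 3 control groups and BDNF 1 h, neighbours among these 5 overlapping, to BDNF 6 h and BDNF 10 h, which overlapped each other and lay clear of BDNF 1 h. Astrocytes also express Ntrk2, mostly in its truncated form. Of 7 markers of astrocytes or radial glia tested, 1 was higher and 0 lower at BDNF 1 h, and 0 were called at KCl 1 h. At BDNF 6 h 5 were lower and 0 higher (21.1% of all genes were lower), and at BDNF 10 h 2 were lower (19.5%). At KCl 6 h and KCl 10 h, where Ntrk2 rose, 6 and 5 were lower (33.1% and 28.2%). The summed level of the 8 listed markers was 21783 to 26334 in controls, 21236 to 25886 with BDNF and 18937 to 27509 with KCl, with S100b the weakest at 1.04 to 11.1, and its part in the result was not tested. In such mixed cultures fewer cells of a type and less RNA per cell cannot be told apart.

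Ntrk3 (ENSMUSG00000059146), the gene of the neurotrophin-3 receptor TrkC, is on the minus strand at chr7:78175959-78738012. Its largest change against controls in any group was the smallest such change of the 6 genes. Controls were at 503 to 574 normalised counts (median 542). BDNF libraries were at 503 and 525 at 1 h, then 658 and 606 at 6 h and 604 and 497 at 10 h, so that only those of 6 h were clear of the controls. The log2 fold change at BDNF 6 h was 0.22 ± 0.08 (SE; adjusted p = 0.0356), against -0.07 at 1 h (0.523) and 0.02 at 10 h (0.89). That call did not hold when BDNF 6 h library A was left out (0.16, adjusted p = 0.318) and with controls of the same time (0.20, 0.18). KCl libraries were at 448 and 516, 567 and 601, and 533 and 517 at 1, 6 and 10 h. All 3 KCl groups overlapped the range of the controls. KCl gave -0.17 at 1 h (adjusted p = 0.0872), 0.11 at 6 h (0.248) and -0.04 at 10 h (0.68). The KCl 1 h call was lost with edgeR and DESeq2 (adjusted p = 0.14 and 0.15), without KCl 1 h library A (-0.07, 0.636) and without any one of 4 control libraries (-0.17 to -0.15, adjusted p = 0.11 to 0.143). From 1 to 6 h the gene gained 0.30 with BDNF (adjusted p = 0.0296) and 0.28 with KCl (0.0213). These calls were lost without BDNF 6 h library A (0.24, 0.21) or BDNF 1 h library A (0.27, 0.161), and without KCl 6 h library B (0.24, 0.105) or KCl 1 h library A (0.18, 0.213). Of the 9 group means BDNF 6 h was highest and clear of the next, and from KCl 6 h down to KCl 1 h each group overlapped its neighbour.

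Ngfr (ENSMUSG00000000120), the gene of p75NTR, is on the minus strand at chr11:95568818-95587735. It was at 52.7 to 68.5 normalised counts in controls, with a median of 56.2. With BDNF it was 129 and 134 at 1 h, then 107 and 106 at 6 h and 83.6 and 78.0 at 10 h. All 6 values were above the highest control, and the groups of the 3 times did not overlap. With KCl it was 72.9 and 86.6 at 1 h, then 86.5 and 42.8 at 6 h and 105 and 81.7 at 10 h. The low value at KCl 6 h, under each control, came from library B, which stood apart in its Gm42418 reads. Upon BDNF stimulation the log2 fold change was 1.15 ± 0.19 (SE) at 1 h (adjusted p = 5.28e-05), 0.85 at 6 h (0.00123) and 0.45 at 10 h (0.0691), the first from 58.9 ± 6.42 (SD, n = 6) to 131 ± 3.05 (n = 2). No time difference within BDNF was called for it (adjusted p = 0.377 and 0.939). Upon KCl stimulation it was 0.43 at 1 h (0.0644), then 0.05 at 6 h (0.821) and 0.65 at 10 h (0.00661). Without KCl 6 h library B the 6 h value was 0.55 (adjusted p = 0.0178), and without library A it was -0.44 (0.0528), so the 2 libraries were called in opposite directions. The call of BDNF 10 h was lost without either of its libraries (0.40 and 0.50, adjusted p = 0.284 and 0.195), without control 6 h library A (0.44, 0.101), without control 1 h library B (0.42, 0.108), with controls of the same time (0.36, 0.313) and with no filter on low values (0.45, 0.106). Those of KCl were lost without KCl 1 h library B (0.31, 0.359) and without KCl 10 h library A (0.47, 0.141). In the order of group means BDNF 1 h and BDNF 6 h led, each clear of the next, and from KCl 10 h through BDNF 10 h, KCl 1 h, KCl 6 h and the controls of 10, 6 and 1 h each group overlapped the next.

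Sort1 (ENSMUSG00000068747), the gene of sortilin, is on the plus strand at chr3:108284082-108361511. Its controls were tightly grouped, at 2478 to 2729 normalised counts with a median of 2634. BDNF libraries were at 3282 and 3434 at 1 h, then 2936 and 3020 at 6 h and 3070 and 2780 at 10 h. KCl libraries were at 2903 and 2882 at 1 h, then 3888 and 3787 at 6 h and 3492 and 3578 at 10 h. All 12 stimulated libraries exceeded all 6 controls. The log2 fold change with BDNF was 0.36 ± 0.06 (SE) at 1 h (adjusted p = 4.41e-05), 0.19 at 6 h (0.0157) and 0.16 at 10 h (0.0408), and with KCl it was 0.14 at 1 h (0.0452), then 0.55 at 6 h (4.36e-08) and 0.43 at 10 h (2.45e-06). The BDNF response was thus highest at the first time and the KCl response at 6 h, with -0.17 from 1 to 6 h for BDNF (adjusted p = 0.0766) and 0.41 for KCl (5.26e-05). These small BDNF changes rested on single libraries: the call of 6 h was lost without BDNF 6 h library B (0.17, adjusted p = 0.152) and with controls of the same time (0.13, 0.203), that of 10 h without BDNF 10 h library A (0.09, 0.444), and that between 1 and 6 h without any one of its 4 libraries (-0.21 to -0.14, adjusted p = 0.129 to 0.321). The KCl 1 h call was lost without either of its libraries (0.14 and 0.15, adjusted p = 0.173 and 0.137). KCl 6 h, KCl 10 h and BDNF 1 h had the highest group means, each clear of the next. Neighbours in the order overlapped among BDNF 6 h, BDNF 10 h and KCl 1 h, and among controls of 6, 1 and 10 h. BDNF 6 h was clear of KCl 1 h. Controls of 6 h (2716 and 2729) were clear of those of 10 h (2478 and 2553). Part of the Sort1 exons overlaps Gm12523 on the opposite strand.

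**Figure D2:**
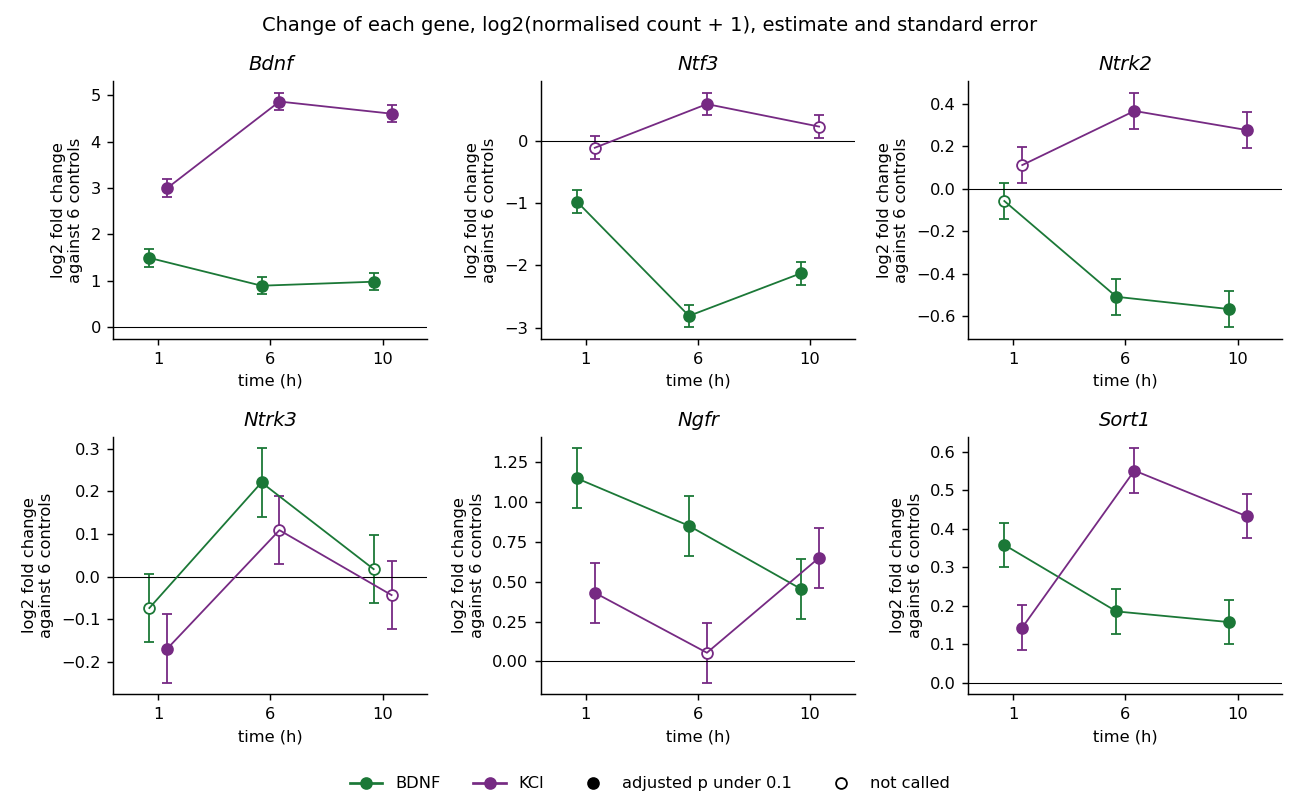
Log2 fold change against the 6 controls (y axis; the scale differs between panels) by time in hours (x axis) for BDNF and KCl; bars are standard errors, filled points have an adjusted p under 0.1 and open points do not. Ntrk2 reaches -0.57 with BDNF and 0.37 with KCl, and Ntf3 reaches -2.81 with BDNF at 6 h.

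A direct test set BDNF against KCl at each time. The difference was called for 4 of the 6 genes at 1 h (background 42.8% of genes), 5 at 6 h (57.3%) and 4 at 10 h (45%). Bdnf was lower with BDNF, with differences of -1.51 at 1 h (adjusted p = 4.87e-05), -3.97 at 6 h (2.22e-10) and -3.62 at 10 h (1.19e-09) on the log2 scale. For Ntf3 the difference, BDNF minus KCl, was -0.86 (0.00397), -3.40 (8.84e-11) and -2.35 (3.72e-08). For Ntrk2 it was -0.17 at 1 h (0.226), then -0.87 at 6 h (7.27e-07) and -0.84 at 10 h (2.34e-06). Ngfr was higher with BDNF by 0.72 at 1 h (0.0178) and 0.80 at 6 h (0.00644), and at 10 h it was at -0.20 (0.536). The calls for Ngfr were lost without KCl 1 h library A (0.60, adjusted p = 0.125) at 1 h and without KCl 6 h library B (0.30, 0.277) at 6 h. Sort1 was higher with BDNF at 1 h by 0.21 (0.0207), a call lost without BDNF 1 h library B (0.18, 0.144), and lower at 6 h (-0.37, 0.000181) and at 10 h (-0.27, 0.00396), so its direction differed between the first and the later times. Ntrk3 was not called at any time, with differences of 0.10 ± 0.10, 0.11 ± 0.10 and 0.06 ± 0.10 (SE). Within each stimulus, 5 of the 6 genes changed from 1 to 6 h with BDNF (background 33.6%) and 5 with KCl (59.6%). From 6 to 10 h the count was 0 with BDNF (0.216%; 35 genes in all) and 1 with KCl (22.5%), namely Ngfr with 0.60 (adjusted p = 0.083). That value fell to 0.10 (0.849) without KCl 6 h library B, and the call was also lost without KCl 10 h library A (0.42, 0.445), without any one library of BDNF 1 h or 6 h, and with edgeR and DESeq2 (0.50 in both, adjusted p = 0.141 and 0.201).

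Levels of different genes were compared per kb of annotated exon, summed over all transcripts of a gene. Per kb, Ntrk2 (358 ± 36.6 normalised counts, SD, n = 6) and Sort1 (346 ± 15.4) were highest in controls and overlapped. Ntf3 followed with 54.8 ± 5.72, then Ntrk3 (range 16.7 to 19.0) and Ngfr with 17.1 ± 1.86, which overlapped, and Bdnf with 9.45 ± 1.65. On this scale the order of the ligands was reversed by 1 h with KCl and by 6 h with BDNF. The time of reversal depends on the exon length used, which was 6217 bp for Bdnf and 1714 bp for Ntf3. In counts not divided by length, Bdnf was above Ntf3 in both BDNF 1 h libraries (158 and 172 against 39.5 and 55.7). Per kb, Bdnf was at 0.173 ± 0.033 of Ntf3 in controls (range 0.124 to 0.222), at 2.42 ± 0.400 (n = 2) with BDNF for 6 h and at 3.37 ± 0.472 with KCl for 6 h. At 1 h it was 1.10 and 0.850 with BDNF, on either side of 1, and 2.07 and 1.09 with KCl. The per-kb ratio of the 2 Trk receptor genes, Ntrk2 over Ntrk3, was 17.2 to 22.3 in controls. With BDNF it was 19.4 and 20.9 at 1 h, then 11.1 and 13.0 at 6 h and 12.3 and 14.3 at 10 h. With KCl it was 22.5 to 25.1 in all 6 libraries, above the highest control. Ntrk2 over Ngfr was 17.8 to 26.0 per kb in controls and 7.77 to 10.4 in the 6 BDNF libraries, which did not overlap. With KCl it was 14.5 to 36.0, with 4 of the 6 libraries under the lowest control and KCl 6 h library B the highest.

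**Figure D3:**
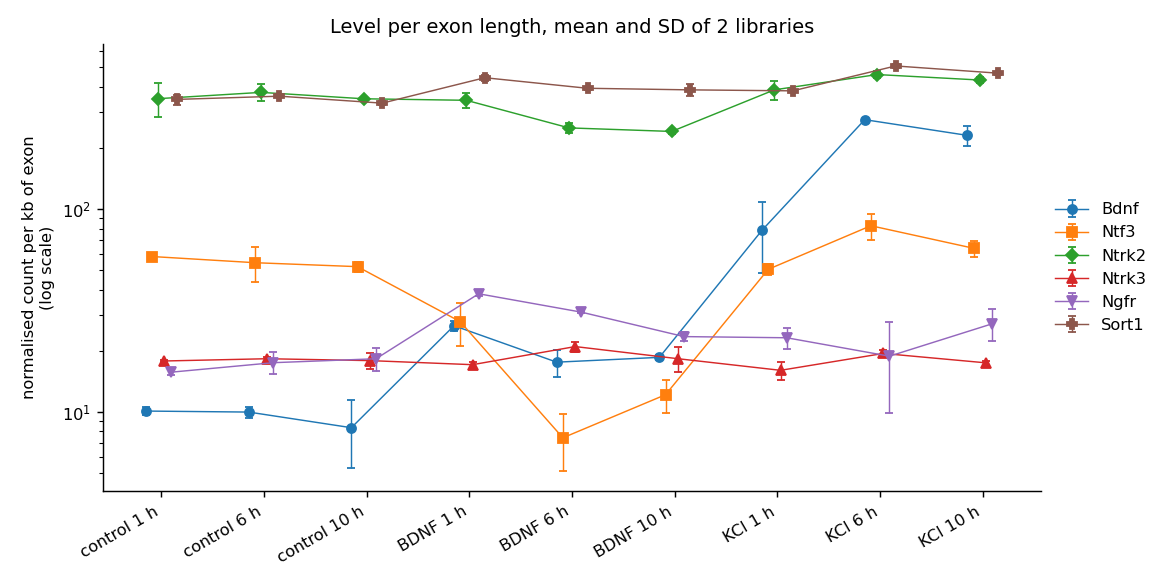
Mean normalised count per kb of exon (y axis, log scale) of the 6 genes in the 9 RNA groups (x axis); bars are the SD of 2 libraries, and lines only join the points of a gene. Bdnf is the lowest of the 6 in each control group, and Ntf3 is the lowest with BDNF at 6 and 10 h.

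For each member the genes with the most similar course were found by Pearson's r of log2 group means over the 9 groups, which share libraries and depth. For Bdnf these were Pak6 (0.996), Scg5 (0.996), whose product 7B2 is a chaperone of prohormone convertase 2, and Mapk8ip1 (0.990), and all 3 were highest at KCl 6 h. The nearest to Ntf3 were Ebf4 (0.985), Klhl14 (0.985) and Zim1 (0.983), each lowest at BDNF 6 h. Ntrk2 was most like Pon2 (0.985), Sh3pxd2a (0.985) and the pseudogene Phf20-ps (0.982), and Sort1 was most like Stk25 (0.981), Unc13a (0.979), which encodes a priming factor of synaptic vesicles, and Zfp598 (0.979). The likeness was lower for Ngfr, with Nrd1 (0.962), Gspt1 (0.952) and Gm14612 (0.943), and for Ntrk3, with Mboat1 (0.920), Ddx18 (0.919) and M6pr (0.915).

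Other receptors of the sortilin family, which bind and sort neurotrophins or their receptors, were read as well. Ntf5, the gene of neurotrophin-4, had a mean of 1.72 normalised counts in controls, was under the filter and was not tested. Sorcs3 was at 237 to 273 in controls and at 659 and 726 at BDNF 6 h, with 1.46 (adjusted p = 1.37e-09), and was called also at BDNF 10 h, KCl 6 h and KCl 10 h (0.91, 0.49 and 0.92). Sorcs2 rose at BDNF 6 h and 10 h (0.83 and 0.40) and at KCl 1 h and 10 h (0.36 and 0.51), and Sorcs1 at BDNF 6 h (0.31) and all KCl times (0.36, 0.25 and 0.66). Sorl1 fell at BDNF 1 h (-0.70, adjusted p = 1.85e-06) and at each KCl time (-0.25, -0.66 and -0.53).

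Further genes of neurotrophin handling and signalling were taken as 5 lists of 93 genes, 87 of them tested, which include the 4 tested genes just given. BDNF changed 47 of the 87 at 1 h (36 higher, 11 lower), 46 at 6 h (28 and 18) and 41 at 10 h (21 and 20), against the background shares above, and KCl changed 58 (38 and 20), 64 (45 and 19) and 58 (44 and 14). The median log2 fold change of the 87 was 0.07, 0.01 and 0.02 with BDNF and 0.10, 0.14 and 0.18 with KCl, beside -0.01 to 0.01 over all genes. Of the genes that cut precursors or control their cutting, 10 were tested. BDNF changed 7, 8 and 5 of these 10 at 1, 6 and 10 h (70%, 80% and 50%), where it changed 40.4%, 43.3% and 40.6% of all genes. KCl changed 7, 10 and 10 (70%, 100% and 100%), where its share of all genes was 54.7%, 66.5% and 57.2%. The median log2 fold changes of this list were 0.38, 0.21 and 0.20 for BDNF. For KCl they were 0.21, 0.78 and 0.60. Whether a list this short differed from all genes was not tested. Pcsk1, a convertase of secretory granules, was at 16.6 to 31.9 normalised counts in controls, 67.9 and 82.1 at BDNF 1 h and 511 and 575 at KCl 6 h. Its log2 fold change was 1.79 at BDNF 1 h (adjusted p = 5.6e-06) and 4.02, 4.63 and 4.63 with KCl at the 3 times (2.64e-11, 2.8e-12 and 5.19e-12). The related convertase gene Pcsk2 fell with BDNF, by 0.77 at 6 h (1.91e-07) and 1.44 at 10 h (3.08e-11), where its 204 and 208 normalised counts lay under all controls (482 at the lowest). Pcsk5 rose at KCl 10 h (1.46, 3.1e-10) and Pcsk6 fell at KCl 6 h (-0.94, 1.77e-05).

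Among 40 adaptors and effectors of Trk receptors, 22, 20 and 18 were called with BDNF (17, 11 and 7 higher) and 27, 26 and 21 with KCl (18, 18 and 16 higher). These are 55%, 50% and 45% of the list with BDNF and 67.5%, 65% and 52.5% with KCl, beside 40.4%, 43.3% and 40.6% and 54.7%, 66.5% and 57.2% of all genes. Irs2, an adaptor of insulin and Trk signalling, was at 395 to 537 normalised counts in controls and at 1901 and 2270 at BDNF 1 h, a log2 fold change of 2.14 (adjusted p = 2.87e-12), and rose by 1.29 at KCl 1 h (5.13e-09). Plcg2 rose by 1.68 at KCl 1 h (0.000879) and the Shc adaptor gene Shc3 by 1.35 at KCl 6 h (6.33e-09). Frs3, a docking protein of receptor kinases, fell at BDNF 1 h (-0.71, 0.00365) and KCl 10 h (-0.74, 0.00149), and Gab1 fell at both 10 h groups (-0.63 with BDNF and -0.65 with KCl, adjusted p = 1.2e-05 and 3.11e-06). Of 18 genes of Trk trafficking and turnover, BDNF called 10, 9 and 9 (55.6%, 50% and 50%) and KCl 13, 12 and 12 (72.2%, 66.7% and 66.7%). Ptprg, a receptor phosphatase, rose by 1.18 at both BDNF 6 h and 10 h (9.54e-12 and 1.85e-11), and the ubiquitin ligase gene Nedd4l fell by 0.86 and 0.69 (9.03e-10 and 3.78e-08), as did the ligase gene Cblb at 6 h (-0.76, 2.2e-07). Slitrk5, a TrkB partner, fell at BDNF 1 h and KCl 1 h (-0.55 and -0.54), and the deubiquitinase gene Usp8 fell at KCl 1 h and 6 h (-0.58 and -1.14). Of 14 partners and effectors of p75NTR, BDNF called 6, 5 and 6 (42.9%, 35.7% and 42.9%, near or under the share of all genes) and KCl 8, 12 and 10 (57.1%, 85.7% and 71.4%), with Traf6 lower at KCl 1 h (-0.61) and Irak1 lower at KCl 6 h and 10 h (-1.21 and -0.91). Irak1 was at 204 and 213 normalised counts at KCl 6 h, under its 454 to 518 in controls.

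Chromatin at the 6 genes was read from 56 ATAC peaks within 20 kb of a gene, of which 55 passed the filter (a mean of at least 10 counts): 7 at Bdnf, 2 at Ntf3, 18 of 19 at Ntrk2, 18 at Ntrk3, 2 at Ngfr and 8 at Sort1. Numbered along each locus, Ntrk2 peaks 17 to 19 and Sort1 peak 8 lie nearer to a start of another gene, as do some others. The edgeR quasi-likelihood test with LOESS offsets called 8 of the 55 peaks at BDNF 1 h (6 gained, 2 closing), beside 16.4% of all 56383 peaks (11.2% gained, 5.2% closing). It called 2 at BDNF 6 h (1 gained, 1 closing), beside 9.4% (7.33% gained, 2.07% closing), and 0 at BDNF 10 h, beside 8.27% (6.23% gained, 2.04% closing). With KCl it called 4 at 1 h (3 gained, 1 closing), beside 7.97% (4.88% gained, 3.08% closing), 2 at 6 h, both closing, beside 6.74% (4.65% gained, 2.09% closing), and 2 at 10 h, both gained, beside 7.08% (4.98% gained, 2.09% closing). At BDNF 10 h, 9684 of all 56383 peaks had an unadjusted p under 0.05, and 1 of the locus peaks was called with TMM scaling. Set against KCl directly, BDNF gave 4 called locus peaks at 1 h (beside 14.1% of all peaks), 1 at 6 h (3.38%) and 0 at 10 h (1.88%, with 7323 peaks at an unadjusted p under 0.05). The 4 became 7 with TMM scaling and with size factors and 2 without BDNF 1 h library A, and the 1 became 0 without either library of KCl 6 h or without BDNF 6 h library A. Between controls, edgeR called 0 locus peaks at 6 h and at 10 h against 1 h, beside 0% and 0.0355% of all peaks, with 2580 and 4556 at an unadjusted p under 0.05. Neither peak of Ntf3 nor either peak of Ngfr was called in any of the 6 comparisons with controls. The 10 peaks at a start site of a member (1000 bp before to 100 bp after it) held 1 call, at Ntrk2. The others ranged from -0.64 to 0.85 on the log2 scale over the 6 comparisons (lowest adjusted p = 0.116), the peak at the Ngfr start from -0.45 to 0.36, and that at the Sort1 start from -0.09 to 0.20.

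**Figure D4:**
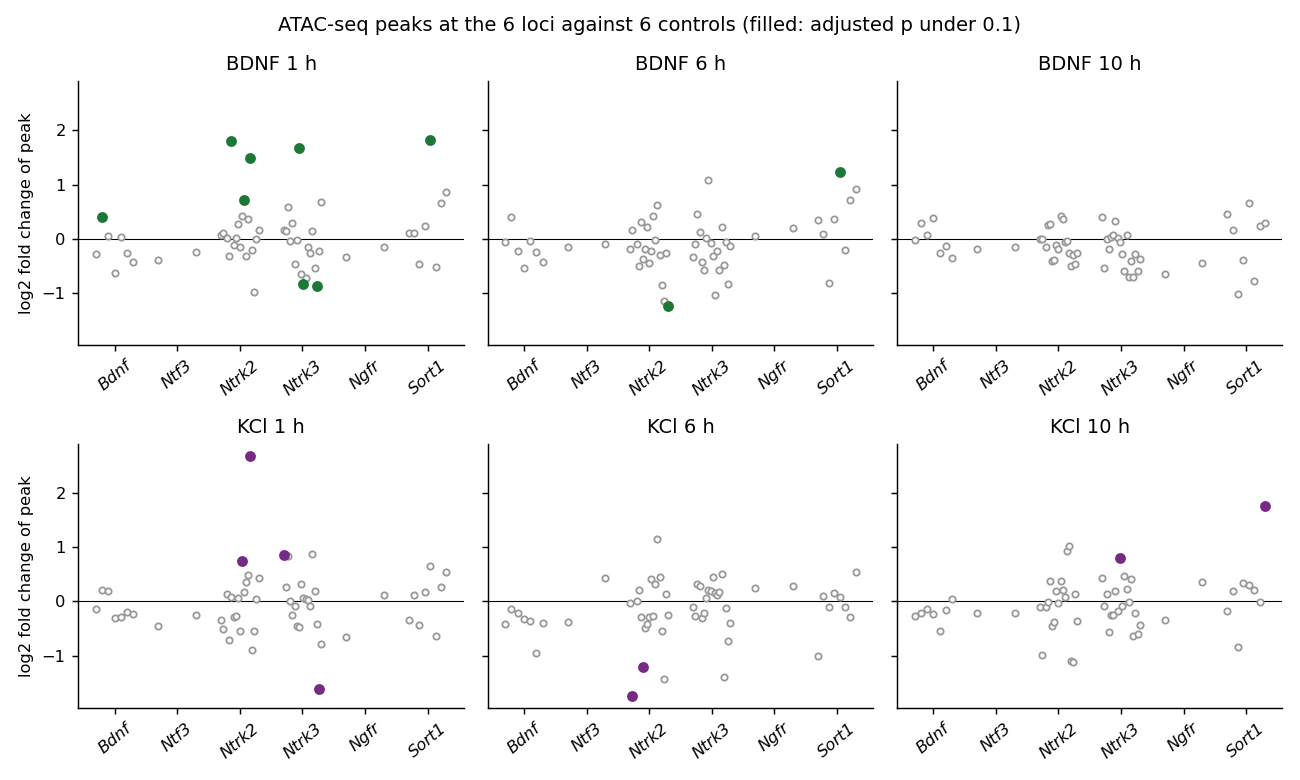
Log2 fold change against the 6 controls (y axis) of the 55 ATAC peaks tested, by gene (x axis), for each stimulus and time; filled points have an adjusted p under 0.1. Called peaks are at Bdnf, Ntrk2, Ntrk3 and Sort1, with 8 at BDNF 1 h and 0 at BDNF 10 h.

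The peaks that the calls turn on are shown with their reference sequence (RefSeq, GRCm38, plus strand), whole where a peak has at most 300 bases and else its central 300. They are the called peak with the largest change at each of Bdnf, Ntrk2 and Sort1, and Ntrk2 peak 14, which was added after its values were seen. Capitals mark each match, on either strand, to AP-1 (TGAGTCA or TGACTCA), CRE (TGACGTCA), EGR (GCGTGGGCG or GCGGGGGCG) and the E-box CANNTG. Peaks are numbered along each locus.
Bdnf peak 2, chr2:109678138-109678437: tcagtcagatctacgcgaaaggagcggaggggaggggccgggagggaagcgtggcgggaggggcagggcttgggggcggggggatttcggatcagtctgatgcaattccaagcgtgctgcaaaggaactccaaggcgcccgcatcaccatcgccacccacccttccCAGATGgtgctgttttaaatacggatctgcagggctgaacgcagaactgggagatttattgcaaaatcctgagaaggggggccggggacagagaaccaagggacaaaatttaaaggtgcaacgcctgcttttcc
Ntrk2 peak 5, chr13:58910211-58910363: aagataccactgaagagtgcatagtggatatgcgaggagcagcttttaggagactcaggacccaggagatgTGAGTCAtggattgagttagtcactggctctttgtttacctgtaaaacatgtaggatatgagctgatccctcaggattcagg
Ntrk2 peak 14, chr13:59073674-59073973: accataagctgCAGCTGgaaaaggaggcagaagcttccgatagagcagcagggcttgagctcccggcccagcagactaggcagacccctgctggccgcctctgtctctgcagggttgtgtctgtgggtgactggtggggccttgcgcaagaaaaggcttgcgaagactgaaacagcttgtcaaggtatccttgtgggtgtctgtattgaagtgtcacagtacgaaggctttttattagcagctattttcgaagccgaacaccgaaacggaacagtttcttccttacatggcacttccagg
Sort1 peak 5, chr3:108327306-108327587: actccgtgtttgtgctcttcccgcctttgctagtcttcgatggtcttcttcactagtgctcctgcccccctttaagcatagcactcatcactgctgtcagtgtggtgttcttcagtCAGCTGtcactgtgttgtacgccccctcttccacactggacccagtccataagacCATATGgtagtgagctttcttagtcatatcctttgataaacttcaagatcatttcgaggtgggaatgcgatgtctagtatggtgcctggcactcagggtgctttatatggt

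Of the central 300 bases of the 36484 tested peaks at least 300 bp wide, 8.54% hold an AP-1 match, 1.34% a CRE match, 3.27% an EGR match and 75.4% an E-box. Over whole peaks at the 6 loci, AP-1 matches were found in Ntrk2 peaks 5 and 9, Ntrk3 peak 9 and Sort1 peak 7. Of these, Ntrk2 peak 5 was called as gained with both stimuli at 1 h, and Ntrk2 peak 9 as closing at BDNF 6 h, as described below. In Ntrk2 peak 9 the match lies outside the central 300 bases, and Ntrk2 peak 5 and Ntrk3 peak 9 are shorter than 300 bases, so the shares above do not apply to these 3. No peak there held these letters of CRE or EGR. The 11 RefSeq promoters of 4 members were 7 of Bdnf, 2 of Ntf3, 1 of Ntrk2 and 1 of Ngfr (250 bases before to 50 after a start). They held none of these exact AP-1, CRE or EGR letters, beside matches in 5.20%, 1.79% and 3.47% of 32851 promoters. Variants of these letters were not searched for, so a peak or promoter without a match may still hold such a site.

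Ntrk2 peak 14 lies in an intron of Ntrk2, 202 kb past the nearest Ntrk2 start, and within the span of 4930415C11Rik. The nearest annotated start of any gene to this peak is that of Gm34245, at 4473 bp, and which gene the peak acts on was not tested. ATAC counts of Ntrk2 peak 14 are given first. Its scaled ATAC count was 28.7 at the lowest, 47.1 ± 11.9 (SD, n = 6) on average and 63.6 at the highest in controls, 166 and 166 at BDNF 1 h, and 56.1 and 45.5 at KCl 1 h. The BDNF 1 h libraries were clear of all others, while KCl 1 h lay within the controls. The log2 fold change was 1.80 ± 0.20 (SE; adjusted p = 2.12e-13) at BDNF 1 h, 0.31 at BDNF 6 h (0.545) and 0.08 at KCl 1 h (0.896), and BDNF differed from KCl at 1 h by 1.72 (2.04e-07). The start-site peak, Ntrk2 peak 2, over an exon, was at 49.5 to 96.5 in controls and at 132 and 106 at BDNF 1 h, a gain of 0.71 (0.00435) that was not called without BDNF 1 h library A (0.55, 0.225). KCl 1 h, at 80.1 and 82.9, was inside the controls. At 1 h, peaks of Ntrk2 gained with BDNF while its RNA overlapped the controls and was not called. At BDNF 6 h, when its RNA was lower, 1 peak of the locus was called, the closing Ntrk2 peak 9 (-1.25, adjusted p = 0.0568). That call was lost without either library of BDNF 6 h (-1.20 and -1.29, adjusted p = 0.341 and 0.307) and with controls of the same time (-1.09, 0.277).

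Ntrk2 peak 5, with the AP-1 match, is intronic and 38.6 kb past the nearest Ntrk2 start. It was weak, with 1 to 8 raw counts in controls, 36 and 35 at BDNF 1 h and 45 and 29 at KCl 1 h. Scaled, it was at 1.66 to 13.2 in controls, 15.7 and 11.5 at BDNF 1 h and 39.4 and 23.0 at KCl 1 h. On this LOESS scale BDNF overlapped and KCl did not overlap the controls. In raw counts both stimuli were above every control, so the overlap of BDNF depended on the scaling. KCl 1 h raised Ntrk2 peak 5 by 2.69 ± 0.51 (SE, adjusted p = 0.000246) and BDNF 1 h by 1.49 (0.0463), and their difference of -1.20 was not called (0.129). The BDNF call was lost without either of its libraries (0.80 and 1.31, adjusted p = 0.622 and 0.278), without KCl 1 h library A (1.25, 0.128), with controls of the same time (2.16, 0.102) and with the DESeq2 Wald test (1.52, 0.108). It was larger, at 3.43 and 3.42, with TMM scaling and size factors (adjusted p = 1.58e-08 and 1.69e-08), at 2.42 with no filter (0.000171), and at 2.38 without control 6 h library A (0.00229), the highest control.

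Ntrk3 peak 16 was at 1.19 to 13.2 in controls, 29.0 and 34.6 at BDNF 1 h and 5.10 and 8.77 at KCl 1 h. BDNF 1 h was clear of the controls, with 1.68 (adjusted p = 0.00168), KCl 1 h was at -0.47 (0.681), and BDNF exceeded KCl by 2.15 (0.00462). Without BDNF 1 h library B these became 1.24 (0.221) and 1.78 (0.123). Sort1 peak 5, in an intron 28.0 kb before the nearest of the annotated starts, was at 2.17 to 17.9 in controls and 23.6 and 34.7 at BDNF 1 h, with 1.82 (0.000809) at 1 h and 1.23 (0.0848) at 6 h. The 1 h call was lost without BDNF 1 h library B (1.22, 0.257). That of 6 h was lost without any one of 8 stimulated libraries (0.98 to 1.19, adjusted p = 0.104 to 0.443) and with controls of the same time (0.34, 0.865). Bdnf peak 2, in an intron 1255 bp past a start, was at 97.3 to 132 in controls and 132 and 155 at BDNF 1 h, with 0.40 (0.0841), a call lost without either BDNF 1 h library (0.51 and 0.28, adjusted p = 0.133 and 0.58), without any one of 4 controls and under the TMM, size-factor and DESeq2 alternatives (0.32 to 0.40). Although Bdnf RNA was highest with KCl, no Bdnf peak was called with KCl at any time. Only Bdnf peak 3 met the definition of a start-site peak, and no peak covered the first Bdnf start, at chr2:109674700. Chromatin at Bdnf starts without a peak was not tested.

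**Figure D5:**
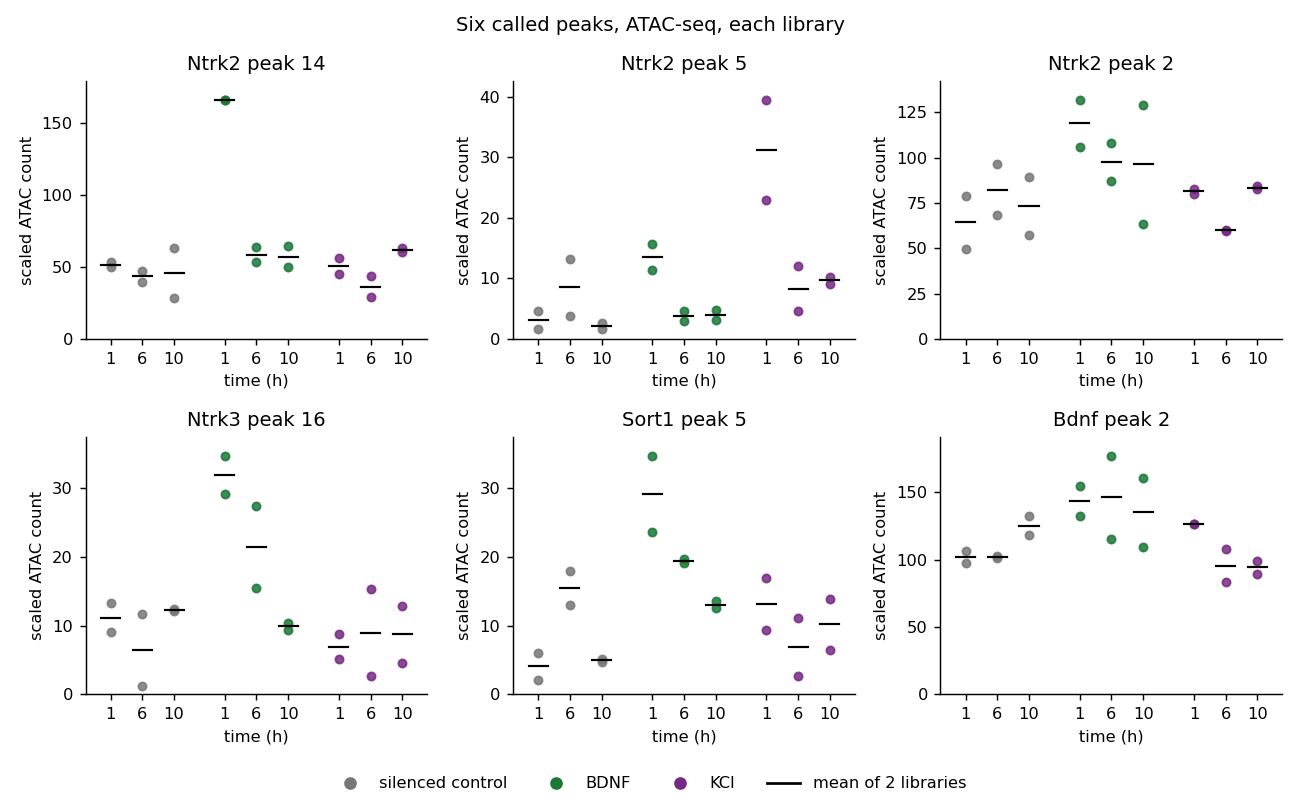
Scaled ATAC counts (y axis, linear, starting at 0) of the 6 peaks described in the text, in the 18 ATAC libraries by stimulus and time in hours (x axis); points are libraries and bars are means of 2. Ntrk2 peak 14 stands at 166 in both BDNF 1 h libraries, above all others, and Ntrk2 peak 5 is highest at KCl 1 h.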

How the data were processed

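RNA-seq and ATAC-seq were each measured in 18 samples, grouped by the sample labels. For RNA, per the study's methods, reads were mapped to mm10 with TopHat2, and the authors divided gene counts by the size factors of DESeq2, so that the deposited values are a linear signal. All values (100%) were whole multiples, within 0.01, of the smallest step of their column, so whole reads were recovered for depth and for the count tests. For ATAC, the authors aligned with Bowtie2, called peaks with MACS2 and counted with DiffBind, and the deposited values are raw counts per peak although the table is named as normalised. All 18 columns of each were used. The deposited tables of changed genes and peaks hold the authors' fold changes and p-values and were not used, other than to pair identifiers with symbols (24184 genes).

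Log2(normalised count + 1) was tested with limma 3.58.1 (7 levels with the 6 controls as 1, trend and robust; 9 levels for control times), and ATAC counts with edgeR 4.0.16 (quasi-likelihood, robust, LOESS offsets of span 0.3). Features with a mean under 10 were left out. Tests were two-sided, called at a Benjamini-Hochberg adjusted p under 0.1 over all features, and tested on simulated data. Alternatives included edgeR with TMM and DESeq2 1.42.0. Members and lists were chosen with earlier results of these data known. Named were all members, all other neurotrophins and receptors, per comparison up to 3 called pathway genes in each direction, 3 like genes per member, and start-site and most changed called peaks. Replicates were not identical (chi-square per degree of freedom 2.33 to 36.4 in RNA, 2.04 to 2.58 in ATAC). RNA columns carry letters that no label explains. In ATAC, where columns name a group alone, A and B follow column order. Scaled ATAC counts are counts divided by the LOESS offsets. Some genes and 1 sequence that this rule names are not reported here.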

Additional observations from a re-analysis of the deposited data

Results flagged for a closer look

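Bdnf in control 10 h library A was at 38.5 normalised counts, far below the other 5 controls, and was singled out by Dixon's test. By the same test, control 6 h library A was high at Ntrk2 peak 5 (13.2 scaled counts) and low at Ntrk3 peak 16 (1.19 scaled counts). Of 12 sets of 6 controls tested, 3 were singled out in this way, and chance gives about 1 in 20.

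In 11 of 24 tests the level of a member differed between times of a stimulus, on the log2 scale and with no control subtracted. Of all genes, 33.6% (BDNF) and 59.6% (KCl) were called from 1 to 6 h, and 0.216% and 22.5% from 6 to 10 h. Which of the 11 calls were lost on leaving out 1 library is given above with each gene. From 1 to 6 h with BDNF, the difference was -0.60 for Bdnf, -1.84 for Ntf3, -0.45 for Ntrk2, 0.30 for Ntrk3 and -0.17 for Sort1. From 1 to 6 h with KCl, it was 1.86 for Bdnf, 0.70 for Ntf3, 0.25 for Ntrk2, 0.28 for Ntrk3 and 0.41 for Sort1. From 6 to 10 h with KCl it was 0.60 for Ngfr.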

How the results depend on the processing

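A stricter threshold of 0.01 gave 3 members at BDNF 10 h, 1 at KCl 1 h, 2 for BDNF against KCl at 1 h, 2 from 1 to 6 h with BDNF, 2 with KCl and 0 from 6 to 10 h with KCl. It gave 31, 26 and 23 pathway genes with BDNF, and 4, 0, 1, 1 and 1 locus peaks at BDNF 1 h, BDNF 6 h, KCl 1 h, KCl 6 h and KCl 10 h. Controls of the same time gave 2 members at KCl 1 h, and 0 and 1 locus peaks at BDNF 6 h and KCl 1 h. No filter, edgeR and DESeq2 each gave 0 members from 6 to 10 h with KCl. Locus peaks were 5, 1 and 4 with TMM scaling (BDNF 6 h, BDNF 10 h, KCl 10 h), 1 and 4 with size factors (BDNF 10 h, KCl 10 h), 1, 2 and 1 with the DESeq2 Wald test (BDNF 6 h, KCl 1 h, KCl 10 h), and 2 and 0 within 2 kb of a gene (KCl 1 h, KCl 10 h).

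Leaving out 1 library gave 4 members at BDNF 1 h, 5 to 6 at BDNF 6 h, 3 to 5 at BDNF 10 h, 2 to 4 at KCl 1 h, 4 to 5 at KCl 6 h and 2 to 4 at KCl 10 h. It gave 3 to 4, 4 to 5 and 4 for BDNF against KCl, 2 to 5 and 3 to 5 from 1 to 6 h with BDNF and KCl, and 0 to 1 from 6 to 10 h with KCl. Pathway genes ranged from 33 to 50, 26 to 49 and 25 to 46 with BDNF and from 45 to 60, 59 to 64 and 50 to 62 with KCl. Locus peaks ranged from 2 to 8, 0 to 4 and 0 to 1 with BDNF and from 1 to 5, 0 to 3 and 0 to 3 with KCl. Ngfr at KCl 6 h ranged from -0.44 to 0.55. The cause was not tested in these cases.

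The letters of the RNA columns showed no common pairing of the libraries (correlation of deviations -0.315 to 0.418, median 0.065, over 36 pairs of groups). Of these correlations, 13 were over 0.1 and 6 under -0.1. Whether the libraries were paired in another way was not tested. A replicate block on the letter left each count of members as it was (4, 6 and 5 with BDNF, 4, 4 and 4 with KCl). No paired analysis was possible for ATAC because the columns carry no replicate number. Depth limits Ntf3 at BDNF 6 h, with 11 and 17 reads, and the weak peaks.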
